A study of Mus musculus with 6 samples.

Results

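The 8 genes described here encode carriers that return glucose, fructose and lactate from the tubular fluid to the blood. They are the sodium-coupled carriers Slc5a1, Slc5a2, Slc5a8, Slc5a10 and Slc5a12 and the facilitative carriers Slc2a1, Slc2a2 and Slc2a5. They were taken by symbol, as named transporters of the early and late proximal tubule from a table of 52405 genes, and the rule uses no threshold on the measured values. The RNA came from proximal tubule cells isolated from adult female mice of the C57BL/6 strain. All mice, controls included, had been ovariectomized at postnatal day 21, and their kidneys were uninjured. The KO group comprised 3 libraries from mice lacking the insulin-like growth factor 1 receptor (Igf1r) in the proximal tubule. The Ctr group comprised 3 libraries from control mice. The sources used here do not give the Cre driver, the floxed allele, the age in weeks, the controls' genotype or how many animals went into a library, and they describe replicates as biological.

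Filtered glucose is taken up across the brush border by sodium-coupled carriers that draw on the sodium gradient set by the sodium pump, and it leaves the cell through facilitative carriers in the basolateral membrane. The early tubule (segments S1 and S2) reclaims most of it with a carrier of low affinity and high capacity, and the late tubule (S3) scavenges the rest with a carrier of high affinity. Lactate is handled by a similar pair of sodium-coupled monocarboxylate carriers, one of low affinity in the early tubule and one of high affinity further along. The kidney cortex also takes up fructose, which its cells phosphorylate and cleave.

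Cells were taken from dissociated cortex with beads against prominin-1. The proximal tubule markers were abundant (Slc34a1 at 2085 to 2392 FPKM in KO and 1935 to 2669 FPKM in Ctr), FPKM being fragments scaled to transcript length and to the library's mapped fragments. Markers of other segments were present too, and Umod of the thick ascending limb was at 1234 to 2300 FPKM in KO and 1077 to 1522 FPKM in Ctr. KO replicate 1 and Ctr replicate 1 stood apart from the other 4 libraries on the first principal component, which held 49.95% of the variance. They also held nearly all the podocyte signal, with a summed marker level of 81.7 FPKM in KO replicate 1 and 109 FPKM in Ctr replicate 1, against at most 1.40 FPKM in the other libraries. In bulk RNA, fewer cells of a type and less RNA per cell cannot be told apart. Igf1r was at 4.78, 7.67 and 5.08 FPKM in KO replicates 1, 2 and 3 and at 18.7, 15.3 and 22.7 FPKM in Ctr replicates 1, 2 and 3, so every KO library lay below every Ctr library.

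The 8 carriers differed by more than 10-fold in level, and the early carriers were the more abundant. All 8 passed the filter of a mean of at least 1 FPKM. The mean over the 6 libraries was 391 FPKM for Slc5a2, which put it at rank 208 among 12770 genes tested. Slc5a12 followed at 118 FPKM and Slc2a2 at 109.8 FPKM. Slc5a10 averaged 57.9 FPKM and Slc2a5 56.7 FPKM. The lowest were Slc5a8 at 28.8 FPKM, Slc2a1 at 25.3 FPKM and Slc5a1 at 24.6 FPKM. Neighbours in this order kept their order in all 6 libraries for 3 of 7 pairs, namely Slc5a2 over Slc5a12, Slc2a2 over Slc5a10 and Slc2a5 over Slc5a8. For each of these 3 the exact two-sided sign-flip permutation test on within-library log2 differences gave an adjusted p of 0.0729 over the 7 pairs, above 0.05, with the raw p at the smallest value 6 libraries allow. The order was set by the mean of the same 6 libraries, which are not independent if the numbers pair them, so these counts are a description. The differences were 1.74 ± 0.23, 1.03 ± 0.70 and 0.95 ± 0.23 on the log2(FPKM + 1) scale (SD, n = 6), in the order given. The other 4 pairs changed places between libraries.

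**Figure D1:**
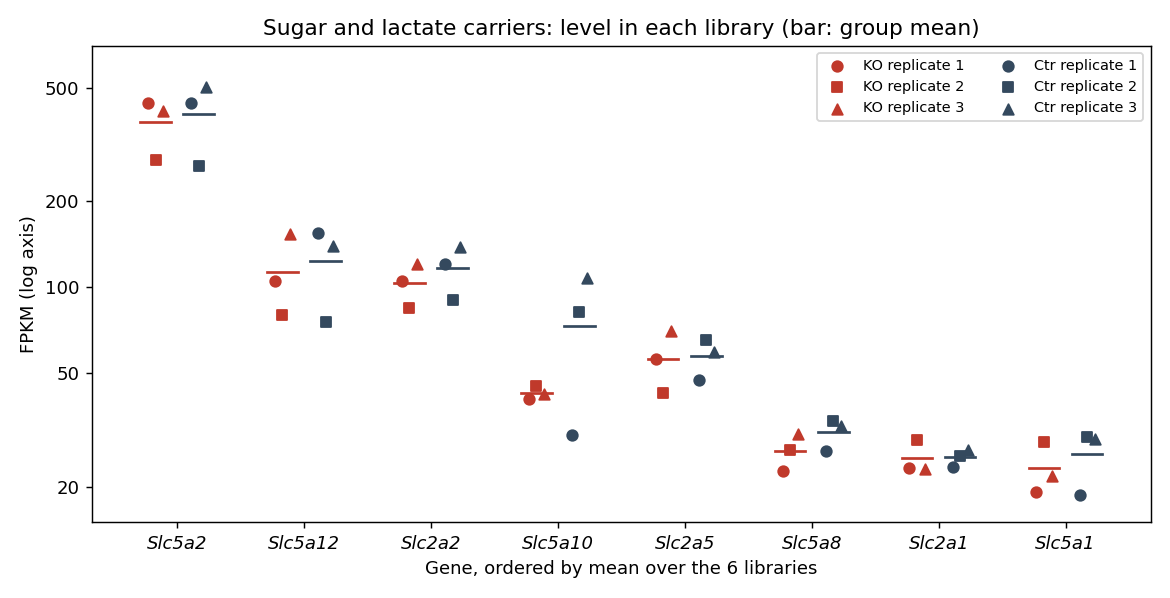
FPKM of the 8 carriers on a log axis in each library, KO on the left and Ctr on the right of each gene, with a bar at the group mean and a symbol for the replicate number. Slc5a2 spans 265 to 503 FPKM, and KO and Ctr overlap for every gene.

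Slc5a2 encodes SGLT2, the early glucose carrier (ENSMUSG00000030781, GRCm38 chromosome 7, 128265657 to 128272430, plus strand). Its level was 440.3, 279 and 415 FPKM in KO replicates 1, 2 and 3 and 440.7, 265 and 503 FPKM in Ctr replicates 1, 2 and 3. The libraries numbered 2 were the lowest of both groups, and the groups overlapped. The means were 378 ± 86.5 FPKM in KO and 403 ± 123 FPKM in Ctr (SD, n = 3 each). The log2 change was -0.07 (SE 0.27), with a 95% interval of -0.70 to 0.56.

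Slc5a1 encodes SGLT1, the high-affinity carrier of the late tubule that also carries galactose (ENSMUSG00000011034, chromosome 5, 33104219 to 33162870, plus strand). It was at 19.2, 28.6 and 21.8 FPKM in KO replicates 1, 2 and 3 and at 18.8, 29.8 and 29.4 FPKM in Ctr replicates 1, 2 and 3. Here the libraries numbered 1 were the lowest of both groups, and the groups overlapped. The means were 23.2 ± 4.89 FPKM in KO and 26.0 ± 6.25 FPKM in Ctr (SD, n = 3 each), a log2 change of -0.15 (SE 0.21, 95% interval -0.64 to 0.35).

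Slc5a10 encodes SGLT5, a brush border carrier of fructose and mannose (ENSMUSG00000042371, chromosome 11, 61672781 to 61720826, minus strand). It had the largest estimated difference and the widest spread of the 8. Its level was 40.4, 45.1 and 42.2 FPKM in KO replicates 1, 2 and 3 and 30.2, 82.0 and 107 FPKM in Ctr replicates 1, 2 and 3. The 3 KO values lay close together, while Ctr replicate 1 was below all of them and the other two Ctr libraries well above. The means were 42.6 ± 2.36 FPKM in KO and 73.2 ± 39.3 FPKM in Ctr (SD, n = 3 each), so that the Ctr mean was 1.72 times the KO mean. This gave an estimate of -0.59 on the log2 scale (SE 0.41, 95% interval -1.57 to 0.39). It was -1.12 without Ctr replicate 1 (limma adjusted p = 0.130), -0.42 without Ctr replicate 2 and -0.23 without Ctr replicate 3. Without both libraries numbered 1 it was -1.09 (SE 0.14, limma adjusted p = 0.234), so the estimate moved with single libraries and passed the threshold in none of these settings. Over the 6 libraries 2.46% of the genes tested had a larger SD on the log2 scale than the 0.68 of Slc5a10.

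The promoters are shown for the carrier that varied most (Slc5a10, which has a pair of RefSeq starts), the one that varied least (Slc2a1) and the early glucose exporter (Slc2a2). They are RefSeq windows of build GRCm38.p6 from 250 bases before to 50 bases after the start, read 5′ to 3′ on the gene's strand. Capitals mark a match to a searched motif. The lines are Slc5a10 start 1 (chr11:61720750-61721049, minus strand), Slc5a10 start 2 (chr11:61719936-61720235, minus strand), Slc2a1 (chr4:119108495-119108794, plus strand) and Slc2a2 (chr3:28697653-28697952, plus strand).
Slc5a10 start 1: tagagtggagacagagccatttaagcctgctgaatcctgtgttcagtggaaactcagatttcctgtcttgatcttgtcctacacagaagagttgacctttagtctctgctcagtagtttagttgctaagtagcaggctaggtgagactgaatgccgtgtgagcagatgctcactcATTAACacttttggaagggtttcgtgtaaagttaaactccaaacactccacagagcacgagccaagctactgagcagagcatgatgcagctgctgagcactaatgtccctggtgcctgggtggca
Slc5a10 start 2: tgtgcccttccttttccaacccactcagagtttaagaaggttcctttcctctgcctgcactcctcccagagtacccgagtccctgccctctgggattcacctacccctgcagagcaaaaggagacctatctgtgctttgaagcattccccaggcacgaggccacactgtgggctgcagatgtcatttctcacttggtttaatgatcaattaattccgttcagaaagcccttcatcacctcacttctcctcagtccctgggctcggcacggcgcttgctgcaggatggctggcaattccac
Slc2a1: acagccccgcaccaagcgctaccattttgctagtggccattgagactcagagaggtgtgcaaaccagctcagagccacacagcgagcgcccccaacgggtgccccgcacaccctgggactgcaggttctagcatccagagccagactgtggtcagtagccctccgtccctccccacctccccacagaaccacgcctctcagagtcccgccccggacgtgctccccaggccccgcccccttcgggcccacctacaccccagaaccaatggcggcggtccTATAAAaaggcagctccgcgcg
Slc2a2: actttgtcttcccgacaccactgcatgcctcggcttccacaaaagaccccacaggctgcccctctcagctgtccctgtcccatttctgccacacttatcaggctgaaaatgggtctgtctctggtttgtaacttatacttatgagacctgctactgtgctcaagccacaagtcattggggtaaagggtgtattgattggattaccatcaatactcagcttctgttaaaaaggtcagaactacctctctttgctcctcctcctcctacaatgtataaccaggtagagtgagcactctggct

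Of the 8 genes, 6 had a window in the RefSeq table, 7 windows in all; Slc5a2 and Slc5a12 had none. Both strands were searched for 4 motifs, none of which overlaps another by its letters. The half-site of hepatocyte nuclear factor 1 (GTTAAT), a regulator of proximal tubule genes, was in 7.10% of all 32851 windows. Among the 7 it was found in start 1 of Slc5a10, on the opposite strand, beginning 75 bases before the start. The TATA box (TATAAA) was in 13.6% of all windows and in that of Slc2a1, beginning 28 bases after the RefSeq start. The forkhead element (TGTTTAC, 3.65% of all windows) and the hepatocyte nuclear factor 4 element (CAAAGTCCA, 0.475%) were in none of the 7, which says only that these letters are not in these windows. The windows also differed in CG dinucleotides, with 2 in Slc2a2, 3 and 6 in starts 1 and 2 of Slc5a10, 10 in Slc5a1, 15 in Slc2a5, 18 in Slc2a1 and 20 in Slc5a8, against a median of 7 over all windows.

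Slc5a12 encodes SMCT2, the low-affinity sodium-coupled lactate carrier of the early tubule (ENSMUSG00000041644, chromosome 2, 110597298 to 110647779, plus strand). Its level was 105, 79.7 and 153 FPKM in KO replicates 1, 2 and 3 and 155, 75.5 and 139 FPKM in Ctr replicates 1, 2 and 3. As for Slc5a2, the libraries numbered 2 were the lowest of both groups. The means were 113 ± 37.2 FPKM in KO and 123 ± 42.1 FPKM in Ctr (SD, n = 3 each), a log2 change of -0.11 (SE 0.32, 95% interval -0.87 to 0.64).

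Slc5a8 encodes SMCT1, the high-affinity lactate carrier of the later tubule, which also carries short-chain fatty acids and nicotinate (ENSMUSG00000020062, chromosome 10, 88885992 to 88929515, plus strand). It was at 22.7, 26.8 and 30.5 FPKM in KO replicates 1, 2 and 3 and at 26.6, 33.8 and 32.5 FPKM in Ctr replicates 1, 2 and 3. The groups overlapped, and under each replicate number KO was below Ctr. The means were 26.6 ± 3.90 FPKM in KO and 31.0 ± 3.87 FPKM in Ctr (SD, n = 3 each), a log2 change of -0.21 (SE 0.13, 95% interval -0.53 to 0.10).

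Slc2a2 encodes GLUT2, the basolateral glucose exit of the early tubule (ENSMUSG00000027690, chromosome 3, 28697903 to 28731359, plus strand). Its level was 105, 84.2 and 120.1 FPKM in KO replicates 1, 2 and 3 and 121, 90.5 and 138 FPKM in Ctr replicates 1, 2 and 3. The libraries numbered 2 were again the lowest, the groups overlapped, and KO was below Ctr under each replicate number. The means were 103 ± 18.1 FPKM in KO and 116 ± 23.9 FPKM in Ctr (SD, n = 3 each), a log2 change of -0.16 (SE 0.18, 95% interval -0.59 to 0.27).

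Slc2a5 encodes GLUT5, the fructose carrier of the late tubule's brush border (ENSMUSG00000028976, chromosome 4, 150119283 to 150144169, plus strand). It was at 55.8, 42.6 and 70.2 FPKM in KO replicates 1, 2 and 3 and at 47.1, 65.4 and 59.2 FPKM in Ctr replicates 1, 2 and 3. KO held both the lowest and the highest library. The means were 56.2 ± 13.8 FPKM in KO and 57.2 ± 9.30 FPKM in Ctr (SD, n = 3 each), a log2 change of -0.04 (SE 0.19, 95% interval -0.50 to 0.42).

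Slc2a1 encodes GLUT1, a widely expressed glucose carrier found basolaterally in the late tubule and in more distal segments (ENSMUSG00000028645, chromosome 4, 119108711 to 119137983, plus strand). It was at 23.3, 29.2 and 23.1 FPKM in KO replicates 1, 2 and 3 and at 23.5, 25.6 and 27.0 FPKM in Ctr replicates 1, 2 and 3. Its highest library was 1.26 times its lowest, the narrowest span of the 8. The means were 25.2 ± 3.45 FPKM in KO and 25.3 ± 1.76 FPKM in Ctr (SD, n = 3 each), a log2 change of -0.01 (SE 0.11, 95% interval -0.27 to 0.25). The sign of this estimate was positive with median-of-ratios scaling and with quantile normalization, at 0.00175 and 0.00622.

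None of the 8 carriers differed between KO and Ctr past the threshold, an adjusted p of 0.05 over the 12770 genes tested by limma, where 0.0235% of all genes passed, 0.0157% as higher and 0.00783% as lower in KO. The adjusted p was 0.9996 for each of the 8, and 0 of the 8 had an unadjusted p under 0.05, against 3.51% of all genes. Igf1r, the deleted gene, did not pass either, with a log2 change of -1.55 (SE 0.19) and a limma adjusted p of 0.267. Missing this threshold therefore does not show that a gene is unchanged. KO and Ctr overlapped for 8 of 8 carriers, and they did not overlap for 8.59% of all genes, with KO lower for 4.7%. The estimate was below 0 for 8 of 8 carriers and for 56.4% of all genes tested, with medians of -0.13 over the carriers and -0.02 over all genes. The half-width of the 95% interval had a median of 0.48 over the carriers and of 0.29 over all genes. The intervals reach from -1.57 for Slc5a10 to 0.64 for Slc5a12, and the narrowest, of Slc2a1, from -0.27 to 0.25. Without both libraries numbered 1, 7 of 8 estimates were below 0, and that of Slc5a12 was 0.11. The count was 7 of 8 without both numbered 2 and 6 of 8 without both numbered 3. With 1 library left out it ran from 5 of 8, without KO replicate 2 or without Ctr replicate 3, to 7 of 8.

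**Figure D2:**
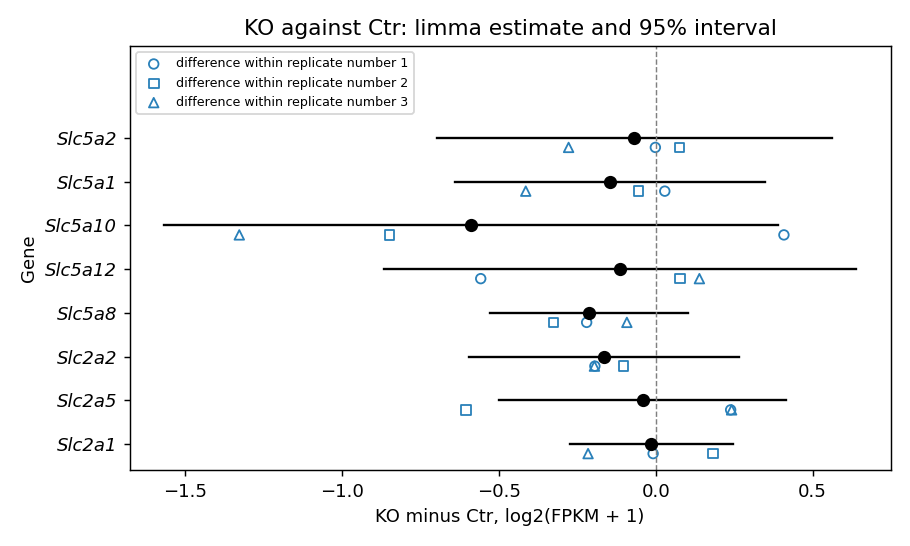
KO minus Ctr on the log2(FPKM + 1) scale for the 8 carriers, with the limma estimate (filled point), its 95% interval (line) and the differences within replicate numbers 1, 2 and 3 (open symbols). Every interval includes 0, and Slc5a10 has the widest, from -1.57 to 0.39.

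With the replicate number as a block in limma, 2 of 8 carriers, Slc5a8 and Slc2a2, had an unadjusted p under 0.05, against 5.64% of all genes. The block narrowed the 95% interval to -0.28 to 0.15 for Slc5a2, to -0.46 to 0.23 for Slc5a12, to -0.33 to -4.3e-05 for Slc2a2 and to -0.41 to -0.014 for Slc5a8, while that of Slc5a10 was -1.32 to 0.15. The limma adjusted p was 0.878 for both Slc5a8 and Slc2a2, and none of the 8 passed, while 4 of all 12770 genes did. These were also the 2 carriers that were lower in KO under all 3 numbers, which held for 15.3% of all genes tested. The differences within numbers 1, 2 and 3 were -0.22, -0.33 and -0.09 for Slc5a8. They were -0.19, -0.10 and -0.20 for Slc2a2. For Slc5a10 they were 0.41, -0.85 and -1.33, and for Slc2a5 0.24, -0.61 and 0.24.

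Most of the carriers had their 2 lowest values in libraries of the same replicate number, in 2 patterns. The libraries numbered 2 were the 2 lowest of the 6 for the early carriers Slc5a2, Slc5a12 and Slc2a2, which was the case for 6.81% of all genes tested. The libraries numbered 1 were the 2 lowest for Slc5a1, Slc5a8 and Slc5a10, which was the case for 11.3% of all genes tested. The margin was small for Slc5a8, with Ctr replicate 1 at 26.56 FPKM against 26.78 FPKM in KO replicate 2. It was small too for Slc5a10, with KO replicate 1 at 40.4 FPKM against 42.2 FPKM in KO replicate 3. Slc2a5 and Slc2a1 followed neither pattern. For 7 of 8 carriers libraries of the same number lay closer together on average than libraries of the same group, Slc5a10 being the exception, and this held for 54.8% of all genes tested. The mean distance for Slc5a2 was 0.12 between libraries of the same number and 0.53 between libraries of the same group, in log2 units. For Slc5a12 these distances were 0.26 and 0.65, for Slc2a2 0.16 and 0.37, and for Slc5a1 0.17 and 0.40.

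**Figure D3:**
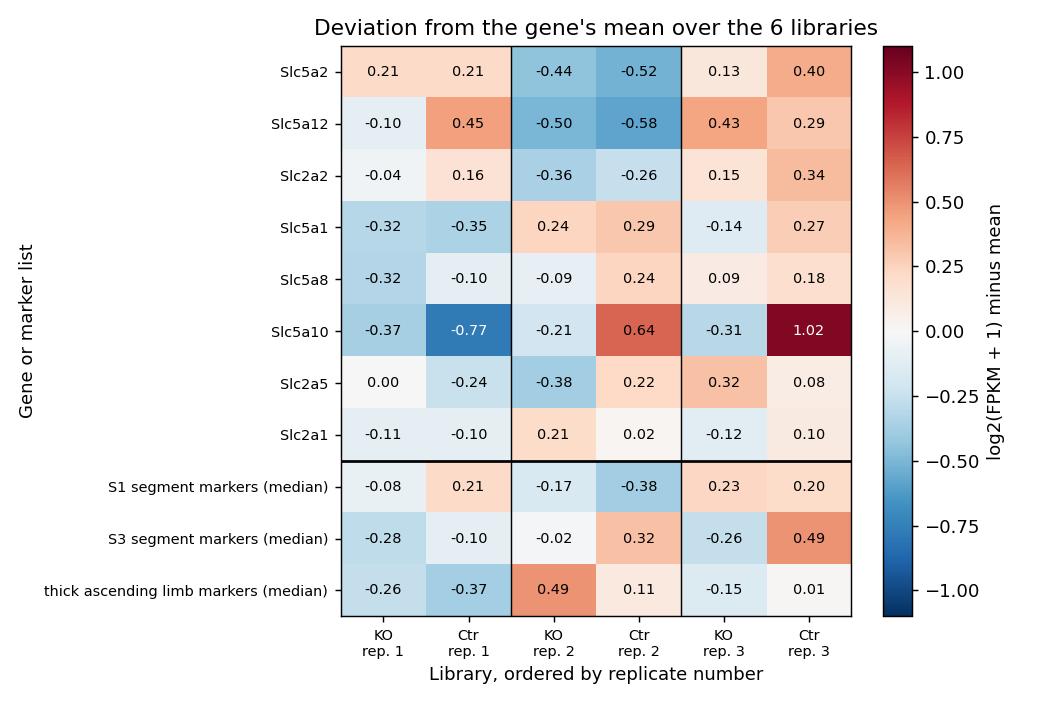
Deviation of each carrier from its mean over the 6 libraries, on the log2(FPKM + 1) scale, with the libraries in pairs of the same replicate number and the medians of 3 marker lists in the lowest rows. Slc5a2, Slc5a12 and Slc2a2 are negative in KO replicate 2 and Ctr replicate 2, and Slc5a1, Slc5a8 and Slc5a10 are negative in KO replicate 1 and Ctr replicate 1.

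Marker lists of the segments, from which the 8 carriers were left out, moved in part with them. The 6 S1 markers had a median deviation of -0.08, -0.17 and 0.23 in KO replicates 1, 2 and 3 and of 0.21, -0.38 and 0.20 in Ctr replicates 1, 2 and 3. This median was thus lowest in both libraries numbered 2, where the early carriers were lowest. Not every S1 marker followed it. In KO, Fcamr was highest in replicate 2 (2.38 FPKM), and Nox4 was lower in replicate 1 (257 FPKM) than in replicate 2 (283 FPKM). The median of the 5 general proximal tubule markers was also lowest in these libraries, at -0.14 in KO replicate 2 and -0.22 in Ctr replicate 2. The dip was thus not particular to S1 markers. Slc6a19, the early tubule's carrier of neutral amino acids, was at 175, 94.3 and 194 FPKM in KO and 196, 96.6 and 169.8 FPKM in Ctr. The 7 S3 markers tested had medians of -0.28, -0.02 and -0.26 in KO replicates 1, 2 and 3 and of -0.10, 0.32 and 0.49 in Ctr replicates 1, 2 and 3. Of these 7, the organic anion carriers Slc22a7 and Slc22a13 were, like Slc5a10, lowest in Ctr replicate 1 and highest in the other two Ctr libraries, and the other 5 had their lowest value in a KO library. Slc22a7 was at 6.41, 6.18 and 4.96 FPKM in KO and 2.03, 14.4 and 11.6 FPKM in Ctr.

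The summed level of the 8 S3 markers listed was 367 to 413 FPKM in KO and 458 to 678 FPKM in Ctr, and 7 of the 7 tested had an estimate below 0, against 56.4% of all genes. Of those 7, limma passed 0 and had 3 at an unadjusted p under 0.05 (Acy3, Slc6a18 and Cyp4b1), against 3.51% of all genes. These 3 had the highest means of the list, at 203, 125 and 106 FPKM in that order, so the sum is mostly theirs. For each of these 3 every KO value lay below every Ctr value, which held for 4.7% of all genes. For the other S3 markers tested the groups overlapped. The 6 S1 markers summed to 992 to 1381 FPKM in KO and 889 to 1314 FPKM in Ctr. The 4 markers of the thick ascending limb summed to 1536 to 2826 FPKM in KO and 1375 to 1922 FPKM in Ctr, with KO replicate 2 the highest, and 0 of the 4 were at 0. The 3 podocyte markers summed to 0.53 to 81.7 FPKM in KO and 0.48 to 109 FPKM in Ctr, and the 4 endothelial markers to 9.81 to 95.8 FPKM in KO and 10.95 to 117 FPKM in Ctr. For both lists the high values were those of the libraries numbered 1, the libraries in which Slc5a1, Slc5a8 and Slc5a10 were lowest. Erythroid markers followed the same libraries (3 listed, 0.65 to 84.6 FPKM in KO and 0.71 to 182 FPKM in Ctr). The 3 markers of the distal convoluted tubule summed to 501 to 585 FPKM in KO and 391 to 507 FPKM in Ctr, and the 4 of collecting duct principal cells to 407 to 536 FPKM in KO and 294 to 532 FPKM in Ctr. The estimate was above 0 for 3 of 3 of the first list and 4 of 4 of the second, against 5570 of all 12770 genes tested. Trpm6 of the first list was at 0.00081 (SE 0.16). In limma 1 of the first (Slc12a3) and 0 of the second had an unadjusted p under 0.05, against 3.51% of all genes. None of these 7 passed. For the thick ascending limb 3 of 4 estimates were above 0, and for collecting duct intercalated cells 3 of 4. The part of these marker levels in the carriers' values was not tested.

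The balance between late and early carriers showed no difference between KO and Ctr larger than its SD in the Ctr group. Slc5a2 exceeded Slc5a1 by 23.0, 9.76 and 19.0 times in KO replicates 1, 2 and 3 and by 23.5, 8.90 and 17.1 times in Ctr replicates 1, 2 and 3. SGLT2 transcripts thus made up 90.7 to 95.8% of the summed FPKM of the pair in KO and 89.9 to 95.9% in Ctr. Slc5a12 exceeded Slc5a8 by 4.64, 2.98 and 5.02 times in KO replicates 1, 2 and 3 and by 5.85, 2.23 and 4.27 times in Ctr replicates 1, 2 and 3. In both pairs the libraries numbered 2 held the smallest ratio of their group. Slc2a2 exceeded Slc2a5 by 1.89, 1.97 and 1.71 times in KO and by 2.56, 1.38 and 2.32 times in Ctr. Against Slc2a1 it was 4.52, 2.89 and 5.21 times as high in KO and 5.15, 3.53 and 5.11 times in Ctr. Slc2a1 is also found in more distal segments, whose markers were present, so this ratio need not be a balance within the proximal tubule.

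For the 4 ratios of late over early carrier, the difference KO minus Ctr was -0.08 for Slc5a1/Slc5a2, -0.10 for Slc5a8/Slc5a12, 0.12 for Slc2a5/Slc2a2 and 0.15 for Slc2a1/Slc2a2, in log2 units. The group means of the first were -3.96 ± 0.64 in KO and -3.88 ± 0.70 in Ctr, and those of the second -1.999 ± 0.40 in KO and -1.90 ± 0.70 in Ctr (SD, n = 3 each). Exact two-sided permutation tests gave p = 0.8, 0.8, 0.8 and 0.7, with an adjusted p of 0.8 for each over the 4 ratios, and the smallest p this design allows is 0.1. Each difference was smaller than the SD of its ratio in the Ctr group, while that of Slc2a5/Slc2a2 was larger than the SD in KO. The ratio Slc2a5/Slc2a2 spread less in KO (SD 0.10) than in Ctr (SD 0.47), and the difference in spread was not tested.

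**Figure D4:**
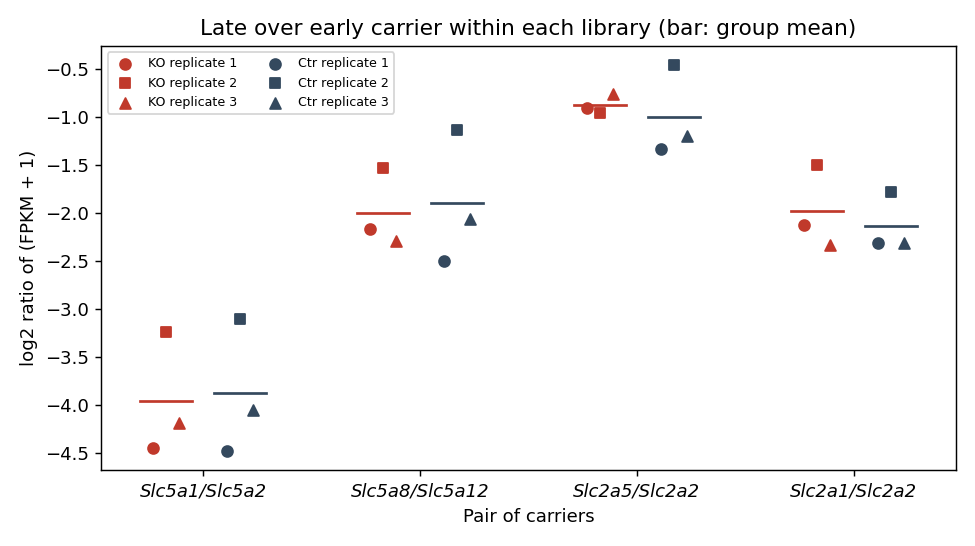
Log2 ratio of the late over the early carrier within each library, KO left of Ctr, with a bar at the group mean and a symbol for the replicate number. The libraries numbered 2 have the highest Slc5a1/Slc5a2 ratio of each group, at -3.24 in KO and -3.11 in Ctr.

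The profile most like that of Slc5a2 over the 6 libraries was that of Slc34a3, a sodium-phosphate cotransporter of the brush border, with a root mean square difference of 0.07 log2 units after centring, followed by Nepn at 0.10. For Slc5a12 these were 1700034P13Rik (0.11) and Slc6a19 (0.16), for Slc2a2 Bnip3l-ps (0.07) and Tmem106a (0.07), and for Slc5a1 Plet1 (0.05) and Rec8 (0.07). Closest to Slc5a10 were Cyp2d9 (0.12) and Ceacam2 (0.15), to Slc5a8 Ldlrad3 (0.03) and Rdh16 (0.04), to Slc2a5 Snapc1 (0.06) and Gm14391 (0.08), and to Slc2a1 Capn1 (0.03) and Ampd3 (0.03). Among the 8 carriers the closest pair was Slc5a2 and Slc2a2 at 0.16, and the most distant was Slc5a10 and Slc5a12 at 0.84. The labels do not say what a replicate number stands for, so the libraries may not be independent, and these distances are a description.

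The 8 carriers made up most of their families' transcripts. The 5 Slc5 members held 87.9 to 91.6% of the summed FPKM of the 13 Slc5 genes listed in KO and 88.8 to 91.0% in Ctr. The 3 Slc2 members held 74.1 to 81.2% of that of the 12 Slc2 genes listed in KO and 78.6 to 82.1% in Ctr. Of the 17 other Slc5 and Slc2 carriers 8 were tested, limma passed 0 and none had an unadjusted p under 0.05. Slc2a4, the insulin-regulated GLUT4, was at 16.96, 20.4 and 15.9 FPKM in KO and 13.8, 14.9 and 15.8 FPKM in Ctr (log2 change 0.24, SE 0.11), and its groups did not overlap. This was the case for 3 of the 43 pathway genes tested, or 6.98% (Slc2a4, Slc16a1 and Fxyd2), against 8.59% of all genes, a share near the background. Slc5a9, the mannose carrier SGLT4, had a log2 change of -0.25 (SE 0.13), the inositol carrier Slc5a11 -0.20 (SE 0.14) and the intracellular hexose carrier Slc2a8 0.11 (SE 0.08). Slc5a7, the choline carrier of neurons, was listed at 0 in all 6 libraries.

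Genes that work beside the carriers showed no difference past the threshold either. Over the 5 pathway lists 43 of 56 genes were tested, and limma passed 0 (0 at an unadjusted p under 0.05). Their estimates were above 0 for 20 and below 0 for 23, with a median of -0.03. With the replicate block in limma, 3 of the 43 had an unadjusted p under 0.05 (Slc5a9, Ldhd and Slc16a7), against 5.64% of all genes, and 0 passed. In monocarboxylate transport and lactate use 9 of 11 were tested, 5 higher and 4 lower by estimate. Ldhd, the mitochondrial D-lactate dehydrogenase, had a log2 change of -0.17 (SE 0.09), the monocarboxylate carriers Slc16a1 and Slc16a7 -0.16 (SE 0.10) and 0.23 (SE 0.16), and the lactate dehydrogenase subunit Ldha -0.10 (SE 0.09). The heart-type subunit Ldhb was at 1451, 1527 and 1363 FPKM in KO and 1354, 1347 and 1426 FPKM in Ctr. Slc16a3, the lactate exporter of glycolytic cells, stayed at or below 0.25 FPKM in KO and 0.31 FPKM in Ctr.

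Among 10 partners and regulators, all tested, 4 estimates were higher and 6 lower. Pdzk1ip1, the membrane protein that SGLT2 needs for activity, was at 862, 738 and 768 FPKM in KO and 840.4, 659.99 and 818 FPKM in Ctr (log2 change 0.03, SE 0.11). It too was lowest in the libraries numbered 2, as Slc5a2 was. Hnf4a, a transcription factor of the proximal tubule, had a log2 change of -0.15 (SE 0.12). The kinase Sgk1 was at 0.15 (SE 0.11), and Txnip, an arrestin-like protein that lowers glucose uptake, at 0.19 (SE 0.28). For the sodium pump 3 of 3 were tested, and its subunits Atp1b1 and Fxyd2 had log2 changes of -0.03 (SE 0.11) and 0.07 (SE 0.07). In fructose and glucose handling 13 of 15 were tested, 6 higher and 7 lower by estimate. The fructose-cleaving pathway's Khk, Tkfc and Glyctk were at -0.04 (SE 0.07), -0.15 (SE 0.21) and -0.08 (SE 0.12), and the gluconeogenic Pck1 at -0.26 (SE 0.28). Hexokinase 2 (Hk2) stayed below 0.2 FPKM in every library.

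The values of the 8 carriers rested on many fragments and on largely unshared sequence. Multiplied out by the longest coding transcript and the estimated depth, the fewest fragments in any library were about 1437 for Slc5a10, 1453 for Slc2a1 and 1646 for Slc5a1, and Slc5a2 had about 13134 or more. Of the 50-base windows of their longest coding transcripts, 0 were shared with transcripts of other genes for 7 of the 8, and 18 of 3480 (0.517%) for Slc5a12. Exons on the opposite strand overlapped 597 exon bases of Slc5a2 (20.6%, with the gene BC017158 at 16.6 to 20.4 FPKM) and 393 of Slc5a10 (16.6%, with Fam83g at 2.87 to 5.47 FPKM). Another 105 bases of Slc2a1 overlapped the antisense gene Gm12868 (3.00%, at 0.46 to 1.86 FPKM). Grap overlapped 4 bases of Slc5a10. Had counting ignored strand, reads from these stretches could belong to either gene. The highest Fam83g value, 5.47 FPKM, lay below the lowest of Slc5a10, 30.2 FPKM.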

How the data were processed

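The authors deposited 1 table of FPKM values with 2 decimals for 52405 Ensembl genes in 6 libraries (3 KO, 3 Ctr). The tools listed are STAR 2.6.0c, RSEM and DESeq2 1.28.1, per the submitters' processing notes, which leave their roles out, and the libraries were made with a directional kit, per the labels' protocols. The genome build, the annotation and whether counting used strand were not given in the sources used here. Identifiers were looked up in GENCODE M21 (GRCm38) for coordinates (52093 genes, 99.4%, and 8 of 8 carriers). Because FPKM scales each library to its own total, abundant genes shift all others.

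The values were analysed as log2(FPKM + 1), a scale that understates changes of low genes. Genes with a mean of at least 1 FPKM (12770) entered limma 3.58.1 under R 4.3.3 (intensity trend, two-sided, Benjamini-Hochberg adjustment over all genes tested). The procedure was tested on simulated data with independent noise in each library and changes larger than the main estimates of the carriers. The likeness of libraries of the same number was not simulated. The limma p-values set each group difference against the spread between these libraries, moderated over all genes tested. Low values fell in steps of 1 fragment, which gave approximate depths of 19800000 to 25400000 fragments for the KO libraries and 21800000 to 23000000 for the Ctr libraries, assuming GENCODE lengths.

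The carriers and gene lists were chosen with earlier results of these data known. Pathway genes were named by the 4 smallest unadjusted p per list, and 2 nearest profiles per carrier by the root mean square difference. The others named (Pdzk1ip1, Ldhb, Slc16a3, Slc5a7, Hk2, Slc6a19, Slc22a7, Acy3, Slc6a18, Cyp4b1, Umod and Slc34a1) were singled out after their values were seen. So were Slc22a13, Slc12a3, Fcamr, Nox4 and Trpm6. Some genes that the rule names are not reported here. Whether replicate numbers pair the libraries was checked by correlating deviations from group means. The correlation of KO with Ctr was 0.63 for number 1, 0.29 for number 2 and 0.37 for number 3, each over 0.1. On this ground, which comes from the data, they were taken as pairs in alternatives and descriptions only. The main limma fit and the permutation tests of the ratios used the group alone. Pairs entered the block, the differences within numbers and the settings without both libraries of a number. Differently numbered libraries also passed 0.1 in 2 cases. These were KO replicate 2 with Ctr replicate 3 (0.297, against 0.293 with Ctr replicate 2) and KO replicate 3 with Ctr replicate 2 (0.15). Deviations within a group sum to 0, so a shift shared by the libraries numbered 1 alone raises the correlations among the others. The pairing of numbers 2 and 3 is therefore weakly marked. Alternatives were another pseudocount, other scalings and filters, no intensity trend, the block, and leaving out libraries.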

Additional observations from a re-analysis of the deposited data

How the results depend on the processing

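No carrier passed the threshold under any of the 17 alternatives, of which leaving out both libraries numbered 2 or both numbered 3 was chosen after seeing the data. Of 136 alternative log2 changes of the 8 carriers 119 kept their sign, and those of Slc5a1, Slc5a8, Slc5a10 and Slc2a2 kept it in all 17. The other filters, the fit without intensity trend and the block leave the carriers' estimates as they are. Signs could therefore not change in these settings, which are among those counted. The replicate block left the carriers passing at 0, gave 4 genes against 3 over all genes, and 3 of these were called by both. Over all genes 1 passed at a mean of at least 5 FPKM, 5 without both libraries numbered 1, 0 without both numbered 2 and 0 without both numbered 3. Leaving out 1 library gave 0 to 4 genes.

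With 1 library left out, the log2 change ran from -0.34 to 0.14 for Slc5a2, from -0.36 to -0.02 for Slc5a1, from -1.12 to -0.23 for Slc5a10, from -0.43 to 0.11 for Slc5a12, from -0.32 to -0.11 for Slc5a8, from -0.33 to -0.03 for Slc2a2, from -0.21 to 0.14 for Slc2a5 and from -0.12 to 0.043 for Slc2a1. Slc2a1 was at 0.00175 with median-of-ratios scaling, at 0.00622 with quantile normalization and at 0.087 without both libraries numbered 3. Without both numbered 1, Slc5a12 was at 0.11. Slc2a5 was at 0.24 without both numbered 2, and Slc5a2 at 0.037 without both numbered 3. The cause was not tested.

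The ratio differences ran from -0.44 to 0.31 for Slc5a1/Slc5a2, from -0.40 to 0.28 for Slc5a8/Slc5a12, from -0.046 to 0.39 for Slc2a5/Slc2a2 and from -0.094 to 0.33 for Slc2a1/Slc2a2 with 1 library left out. Slc5a8/Slc5a12 was at 0.053 without both libraries numbered 2, and Slc2a5/Slc2a2 at -0.033 without both numbered 1 and -0.035 without both numbered 3. The count of neighbouring carriers in a fixed order was 3 in each of these settings with libraries left out and 4 in KO or Ctr libraries alone. Depth is known only as an estimate, and 3 libraries a group limit the precision.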
